A study of Mus musculus with 16 samples.

Results

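The islands described here are stretches of the mouse genome enriched in monomethylated lysine 4 of histone H3 (H3K4me1) in wild-type neural stem cells and in cells heterozygous for Setd5 (Setd5+/-). They were taken from the H3K4me1 island lists of 1 wild-type and 1 Setd5+/- library, restricted to the autosomes. The lists held 35100 and 24099 such islands, 59199 of the 213103 islands in the 13 lists of the series. Chromosomes 1, 4 and 15 were kept apart from the 16 other autosomes, because coverage there differed between the genotypes in another way than elsewhere. The 16 other autosomes held 28729 wild-type and 16867 Setd5+/- islands, and all values below refer to them unless a chromosome is named.

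The series profiled 6 histone marks by chromatin immunoprecipitation and sequencing in wild-type and Setd5+/- cells, and V5-tagged SETD5 in wild-type cells. Both groups were neural stem cells from the telencephalic cortex of mouse embryos at stage E14.5, grown as neurospheres and then plated on Matrigel before fixation. The sources used here do not describe the Setd5 allele or say whether several embryos were pooled. With 1 library per genotype no difference has a replicate check, so no p-value is given, and a difference between genotypes cannot be told apart from one between libraries.

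H3K4me1 is laid down mainly by the KMT2C and KMT2D methyltransferases at enhancers, the distal elements that raise transcription of genes at a distance. At active promoters it lies on both sides of the start site, around a centre in which lysine 4 is trimethylated (H3K4me3) by SETD1 and KMT2 complexes. Acetylation of lysine 27 (H3K27ac) marks the enhancers that are active, and H3K4me1 alone marks poised or weak ones. SETD5 is a SET-domain protein that the title of the series describes as a methyltransferase for lysine 36 of histone H3.

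H3K4me1 islands covered 53.96 Mb in wild-type cells and 32.7 Mb in Setd5+/- cells, which is 0.606 times as much. The ratio lay below 1 on each of the 16 autosomes and ranged from 0.551 on chromosome 17 to 0.660 on chromosome 2. The islands held 1595641 reads in wild-type cells and 755042 in Setd5+/- cells. Setd5+/- islands were slightly wider, with a median of 1800 bp against 1600 bp, and sparser, with a median of 20.5 reads per kb against 29.0. The lowest density that was still an island was 15.0 reads per kb in wild-type cells and 11.8 in Setd5+/- cells. Islands were called separately in each library and the depth outside them is unknown, so whether both lists share a threshold is not known.

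Setd5+/- cells lacked more islands than they added. Of the wild-type islands, 15399 of 28729, or 53.6%, had no Setd5+/- island overlapping them by 1 bp and are called lost (95% Wilson interval 53.0% to 54.2%, counting error only). Of the Setd5+/- islands, 3275 of 16867, or 19.4%, had no wild-type partner and are called gained (18.83% to 20.02%). The others are called kept. Lost shares ranged from 50.0% to 58.5% over the 16 autosomes and gained shares from 17.5% to 21.7%, so no single chromosome set these values.

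Much of this asymmetry went with the length of the lists. To compare equal covered lengths, the islands with the fewest reads per kb were removed from the longer list until both covered the same length. This removed only wild-type islands, those below 27.5 reads per kb, and left 17561 wild-type beside all 16867 Setd5+/- islands. Reads were not made equal, with 1073106 left in the wild-type list and 755042 in the Setd5+/- list. At equal covered length 8116 wild-type islands (46.2%) were lost and 7024 Setd5+/- islands (41.6%) were gained. The order turned when islands were ranked by reads instead of reads per kb, with 3833 lost and 7693 gained. That ranking kept 12351 wide wild-type islands with a median of 2400 bp. An excess of losses over gains at equal length was therefore not a stable feature of these lists.

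Chromosome 1 went the other way. It carried 2685 islands in wild-type cells and 3910 in Setd5+/- cells, over 5.20 and 8.67 Mb. Only 480 of its wild-type islands (17.9%) were lost, and 1745 of its Setd5+/- islands (44.6%) were gained. Chromosome 15 was nearly balanced, with 1489 and 1556 islands, 441 lost (29.6%) and 498 gained (32.0%). Chromosome 4 lay between these and the rest, with 2197 and 1766 islands, 991 lost (45.1%) and 540 gained (30.6%). In regions with an island in both genotypes, the median log2 ratio of reads per kb, Setd5+/- over wild type, was 0.22 above that of the 16 other autosomes on chromosome 1. The corresponding values were 0.10 on chromosome 15 and 0.07 on chromosome 4.

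The regions marked in both genotypes were sparser in Setd5+/- cells almost throughout. Over 12720 such regions the median log2 ratio of reads per kb, Setd5+/- over wild type, was −0.56, and 12162 regions (95.6%) had fewer reads per kb in Setd5+/- cells. The median was −0.58 for the 6036 regions overlapping an H3K4me3 island, −0.54 for the 423 within 2 kb of one and −0.54 for the 6261 farther away. The position of a region therefore made little difference to its density once it was called in both genotypes. The ratio is not scaled for sequencing depth, and only its spread between regions can be read. The 3 kept regions with the most wild-type reads illustrate it. The first, in Tmem267 at chr13:119595401-119611600 (GRCm38), held 3510 wild-type and 2931 Setd5+/- reads over the same 16.2 kb. The second lay in Lrig1, which encodes a brake on growth factor receptors, and held 1031 and 594 reads. The third lay in Ptn, which encodes the growth factor pleiotrophin, and held 920 and 428 reads.

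Strength separated lost from kept islands mainly through size. Lost wild-type islands had a median of 38 reads over 1400 bp, and kept ones 58 reads over 2000 bp. Their densities were close, at 28.0 and 30.3 reads per kb. When the wild-type islands were ordered by reads, 80.1% of the lowest decile (15 to 30 reads) were lost and 8.70% of the highest decile (93 to 3510 reads). When they were ordered by density, the lost share moved only from 73.5% in the sparsest to 43.3% in the densest decile. Gained islands showed the same form, with a median of 29 reads over 1600 bp against 36 reads over 1800 bp for kept ones. Their share went from 32.6% in the lowest to 3.08% in the highest decile by reads, and from 34.7% in the sparsest to 12.9% in the ninth and 17.5% in the densest decile by density. Islands found in 1 genotype thus tended to be the small ones of their list. A wide island is more readily paired by an overlap of 1 bp, and the part of this rule in the pattern was not tested.

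**Figure D1:**
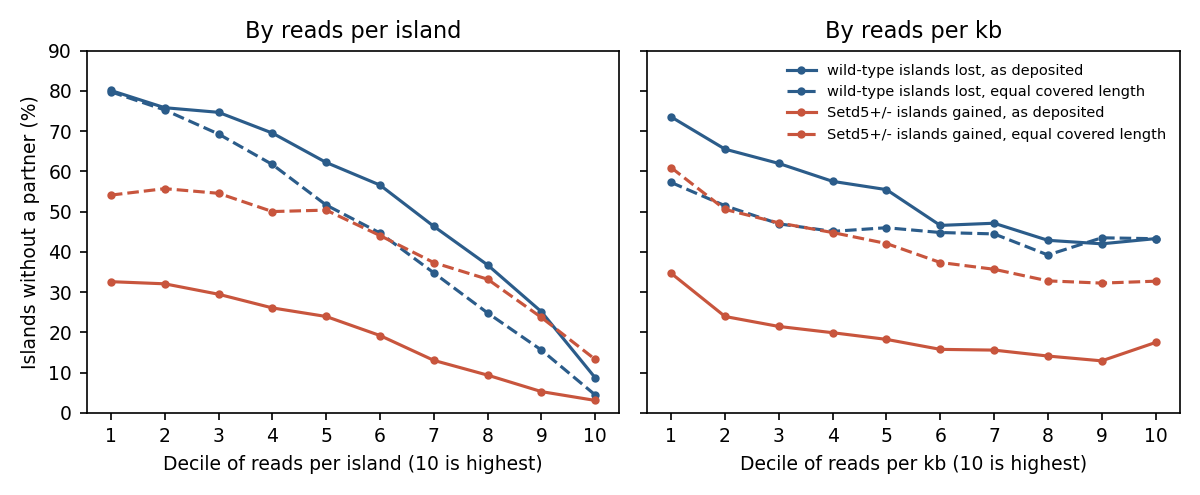
Share of islands without a partner in the other genotype (y axis, percent) by decile of the list ordered by reads per kb and by reads per island (x axis, 10 is highest), for wild-type islands (lost) and Setd5+/- islands (gained), as deposited and at equal covered length. The lost share of wild-type islands as deposited runs from 80.1% to 8.70% by reads and from 73.5% to 43.3% by reads per kb.

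The loss of coverage was deepest where H3K4me1 met H3K4me3. Each base of H3K4me1 was placed inside an H3K4me3 island of either genotype, within 2 kb of one (flank) or farther away (distal). Inside, coverage was 17.5 Mb in wild-type cells and 8.85 Mb in Setd5+/- cells, 0.506 times as much. In the flanks it was 9.08 and 5.74 Mb, a ratio of 0.632, and in distal positions 27.4 and 18.1 Mb, a ratio of 0.660. The inside ratio was below the distal ratio on 16 of 16 autosomes, with ranges of 0.445 to 0.560 and 0.608 to 0.739 that did not overlap. The 3 ratios were 0.744, 0.988 and 1.21 at equal covered length. The order of the 3 ratios was the same on chromosome 1, where the inside, flank and distal ratios were 1.15, 1.66 and 2.12. It was the same on chromosome 15 (0.847, 1.17 and 1.31) and on chromosome 4 (0.708, 0.878 and 0.911), so the inside ratio was below the distal ratio on 19 of 19 autosomes. The size of the contrast was not the same. The log2 of the inside ratio over the distal ratio was −0.89 on chromosome 1, −0.62 on chromosome 15 and −0.37 on chromosome 4. Over the 16 other autosomes it was −0.38, and −0.13 when each H3K4me1 list was set against the H3K4me3 islands of its own genotype only. It was −0.58 without the 25% of H3K4me3 islands with the fewest reads per kb and −0.40 at equal covered length with islands ranked by reads.

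**Figure D2:**
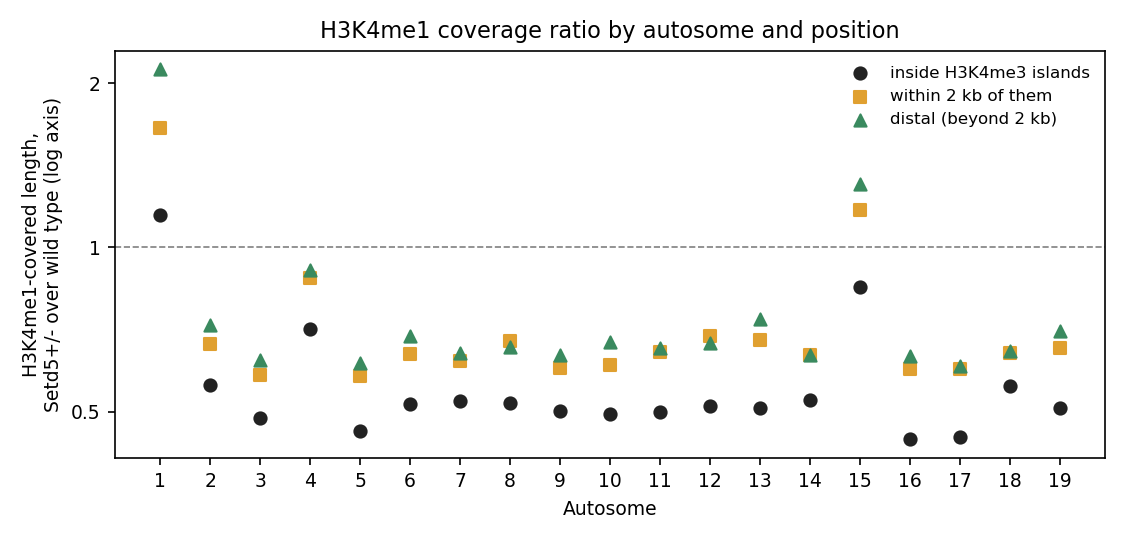
Ratio of H3K4me1-covered length, Setd5+/- over wild type (y axis, log scale), for each autosome (x axis) inside H3K4me3 islands, in their 2-kb flanks and in distal positions. The inside ratio is the lowest of the 3 on each of the 16 other autosomes, and chromosomes 1 and 15 stand above the rest in all positions.

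Counted as whole islands, the picture was less uniform. Here a flank island overlapped no H3K4me3 island but had its nearer edge within 2 kb of one, so it could reach farther out. Of the wild-type islands 13548 (47.2%) overlapped an H3K4me3 island, 1037 (3.61%) lay in a flank and 14144 (49.2%) were distal. Of the Setd5+/- islands 7018 (41.6%) overlapped, 840 (4.98%) lay in a flank and 9009 (53.4%) were distal. Wild-type flank islands were kept most often, with 45.7% lost (95% Wilson interval 42.7% to 48.8%) against 54.4% of overlapping and 53.4% of distal islands. Gained islands were mostly distal: 2337 of 9009 distal islands (25.9%) were gained, against 168 of 840 flank islands and 770 of 7018 overlapping islands (10.97%). After trimming, 48.6% of overlapping, 36.7% of flank and 44.1% of distal wild-type islands were lost. The gained shares were then 30.5%, 41.7% and 50.3%. Gains overlapping H3K4me3 islands or lying in their flanks were thus less frequent than distal gains with either list length.

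The profile across the edges of H3K4me3 islands placed the deficit inside the islands and close to the edge. It was drawn over the 16132 H3K4me3 islands of the wild-type list that also had an H3K4me3 island in Setd5+/- cells. At 500 bp inside the edge, H3K4me1 covered 44.3% of positions in wild-type cells and 20.5% in Setd5+/- cells, a ratio of 0.462. At the edge itself the values were 33.2% and 16.9%. At 1 kb outside they were 11.7% and 7.67%, a ratio of 0.655, and at 10 kb outside 5.37% and 3.38%, a ratio of 0.630. After trimming the ratios were 0.693 at 500 bp inside, 1.01 at 1 kb outside and 0.993 at 10 kb.

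Strong H3K4me3 islands differed more between the genotypes than weak ones, with a limit that depends on how lists are equalised. Of these 16132 islands, 61.8% touched an H3K4me1 island in wild-type cells and 31.6% in Setd5+/- cells. In the weakest quintile, with a median of 34.2 H3K4me3 reads per kb, the shares were 65.1% and 46.5%, a ratio of 0.715. In the strongest quintile, with 170 reads per kb, they were 76.4% and 32.2%, a ratio of 0.421. In the trimmed lists the ratio went from 0.948 in the weakest to 0.567 in the strongest quintile. With the wild-type list cut by reads per island instead, the ratio lay between 0.992 and 1.12 in every quintile and the gradient was gone. That list held only wild-type islands of at least 48 reads.

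**Figure D3:**
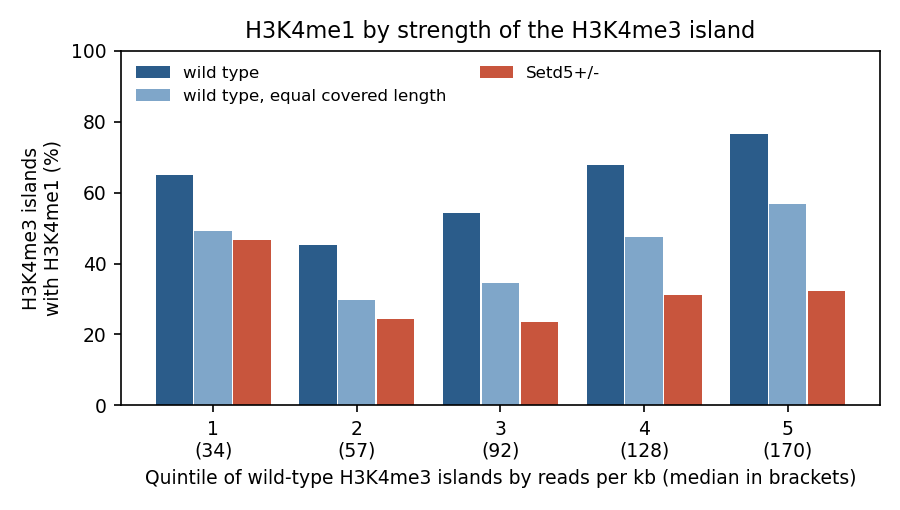
Share of H3K4me3 islands that touch an H3K4me1 island (y axis, percent) in quintiles of the 16132 shared H3K4me3 islands ordered by wild-type reads per kb (x axis, median in brackets), for wild type, wild type at equal covered length ranked by reads per kb, and Setd5+/-. The shares of wild type and Setd5+/- are 65.1% and 46.5% in the weakest and 76.4% and 32.2% in the strongest quintile.

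Fewer transcription start sites had H3K4me1 beside them in Setd5+/- cells, in each of the windows examined. Start sites of 13980 protein-coding genes could be placed from the RefSeq promoter table of GRCm38.p6. For each gene 1 start was taken, and a start under H3K4me3 of either genotype was preferred where the gene had any. In this way 8312 genes had a start under H3K4me3 in at least 1 genotype. From 500 to 1500 bp downstream of these starts, 4267 genes (51.3%) had H3K4me1 in wild-type and 1576 (18.96%) in Setd5+/- cells. Upstream at the same distance the shares were 29.2% and 9.36%, and within 250 bp of the start 18.9% and 5.14%. Both genotypes kept the same outline: a dip over the start (8.41% and 2.45% of starts covered), a higher shoulder 1 kb downstream (42.4% and 14.7%) and a lower one 1 kb upstream (22.3% and 7.42%). Farther out the genotypes approached the ratio seen over the whole list, with 9.82% and 6.22% covered at 3.5 kb downstream. The 5668 starts without H3K4me3 rarely had H3K4me1 in either genotype, with 3.55% and 1.83% downstream. These windows were chosen after values of these data had been seen.

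**Figure D4:**
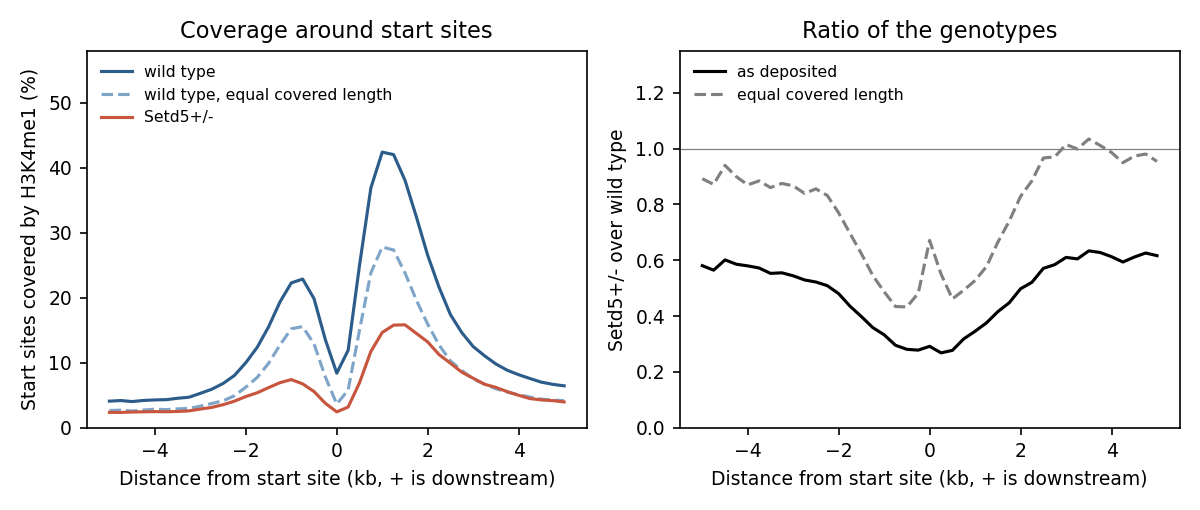
Share of 8312 start sites under H3K4me3 that are covered by an H3K4me1 island (left, percent) and the ratio of the genotypes (right), by distance from the start in kb, with positive values downstream. Solid lines are the lists as deposited and dashed lines equal covered length ranked by reads per kb. Wild type peaks near 1 kb downstream at 42.4%, where Setd5+/- has 14.7%.

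The size of the start-site difference depended on the list. At equal covered length by reads per kb, 33.6% of starts had downstream H3K4me1 in wild-type against 18.96% in Setd5+/- cells. With both lists cut to 50% of the shorter length the shares were 17.3% and 10.1%. With the wild-type list cut by reads per island they were 18.8% and 18.96%, so the difference was absent under that ranking. Islands at like numbers of reads were therefore compared directly. Of 5555 wild-type islands within 1.5 kb of a start under H3K4me3, 3779 (68.0%) were lost, against 53.4% of distal islands. In the quartile of wild-type islands with the fewest reads (15 to 35) 84.7% of start-site and 75.4% of distal islands were lost. In the next quartiles the pairs were 74.8% and 66.2%, then 61.5% and 47.2%, and in the quartile with the most reads 30.8% and 20.5%. Start-site islands were lost more often in each of the 4 quartiles. They were also lost more often in the list cut by reads per island, with 44.5% against 31.3% of distal islands.

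Gains at start sites were correspondingly few. Among 1984 Setd5+/- islands within 1.5 kb of such a start, 325 (16.4%) were gained, against 25.9% of distal islands. Regions kept in both genotypes near starts were narrower in Setd5+/- cells, with a median log2 width ratio of −0.14 over 1808 regions, while the median for 6261 distal regions was 0. Their density ratio was −0.57, beside −0.54 for distal regions.

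The chromosomes kept apart showed the start-site pattern to different degrees. On chromosome 1, 320 of 619 starts (51.7%) had downstream H3K4me1 in wild-type and 349 (56.4%) in Setd5+/- cells. Their 95% Wilson intervals, 47.8% to 55.6% and 52.4% to 60.2%, overlapped. Upstream of the same starts the shares were 27.8% and 38.3%. On chromosome 15 the downstream shares were 53.1% and 34.1%, and on chromosome 4 they were 47.9% and 30.1%. Wild-type shares were thus alike on these chromosomes and the 16 others, and the Setd5+/- shares were not.

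Where a start had H3K4me3 in both genotypes, its ratio between them was nearly the same whether or not H3K4me1 lay downstream. A ratio needs an H3K4me3 island in both, which 7775 of the 8312 starts had. They were 2875 of the starts with downstream H3K4me1 in wild-type only, 265 of those in Setd5+/- only, 1246 of those in both and 3389 of those in neither. Of the 8312 starts, 2971 (35.7%) had downstream H3K4me1 in wild-type cells alone, 280 (3.37%) in Setd5+/- cells alone, 1296 in both and 3765 in neither. At equal covered length 1829 (22.0%) had it in wild-type cells alone and 612 (7.36%) in Setd5+/- cells alone. The median log2 ratio of H3K4me3 reads per kb over the start, Setd5+/- over wild type, was 0.04 in starts marked in wild-type only (middle 50% of starts from −0.12 to 0.20) and 0.05 in starts marked in both. It was 0.04 in starts marked in Setd5+/- only and in starts marked in neither. Starts marked in both more often carried wild-type H3K27ac (89.7%) than those marked in wild-type only (78.8%), in Setd5+/- only (70.7%) or in neither (47.2%). H3K36me3, a mark of transcribed gene bodies, was present in wild-type cells over 71.5%, 61.4%, 50.7% and 32.6% of these genes in the same order. A SETD5-V5 island lay somewhere over the gene, not necessarily at its start, for 50.4%, 42.6%, 28.9% and 21.7% of them.

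The deficit was present at starts rich and poor in CG dinucleotides, the sites of DNA methylation whose clusters form CpG islands. Starts were ordered by the observed over expected number of CG in the 250 bases before the start. Downstream H3K4me1 went from 44.5% of starts in the poorest to 59.3% in the richest quintile in wild-type cells, and from 16.1% to 23.2% in Setd5+/- cells. The ratio lay between 0.329 and 0.392 as deposited. At equal covered length it was 0.646 in the poorest quintile and between 0.491 and 0.588 in the other 4. The sequences before the starts of 6 genes named by the rule for the gene lists are given to show how different such starts can be. They are the 250 bases before the start, 5′ to 3′ on the gene's strand, from RefSeq on GRCm38.p6, with each CG in capitals. A CG occurs in 93.0% of all such sequences, with a median of 10 per sequence and 16 at starts under H3K4me3. Cdk4 (13 CG, chr10:127063285-127063534, plus strand) encodes a kinase that drives entry into S phase, Mcm2 (10 CG, chr6:88898781-88899030, minus strand) a subunit of the replicative helicase, and Rps15 (14 CG, chr10:80292181-80292430, plus strand) a protein of the small ribosomal subunit. These 3 had H3K4me1 over 635, 1001 and 1001 bp of the downstream window in wild-type cells and over 0 bp in Setd5+/- cells.
Cdk4: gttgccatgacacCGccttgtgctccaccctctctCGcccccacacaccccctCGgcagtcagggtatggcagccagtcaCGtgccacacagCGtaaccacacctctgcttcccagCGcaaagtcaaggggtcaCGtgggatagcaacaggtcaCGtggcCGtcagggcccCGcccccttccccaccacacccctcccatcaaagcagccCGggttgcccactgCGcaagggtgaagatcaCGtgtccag
Mcm2: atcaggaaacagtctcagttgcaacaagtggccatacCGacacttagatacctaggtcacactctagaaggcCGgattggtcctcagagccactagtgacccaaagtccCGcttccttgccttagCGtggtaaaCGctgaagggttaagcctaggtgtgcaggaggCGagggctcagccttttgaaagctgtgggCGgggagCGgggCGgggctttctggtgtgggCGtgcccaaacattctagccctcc
Rps15: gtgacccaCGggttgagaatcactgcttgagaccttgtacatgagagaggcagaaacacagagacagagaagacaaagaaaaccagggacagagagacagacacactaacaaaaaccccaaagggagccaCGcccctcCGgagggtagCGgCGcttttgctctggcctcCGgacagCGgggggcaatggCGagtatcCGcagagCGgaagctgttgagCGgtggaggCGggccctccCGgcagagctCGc
Gli3 (34 CG, chr13:15463473-15463722, plus strand) encodes a transcription factor of the Shh pathway and S100b (2 CG, chr10:76253586-76253835, plus strand) a calcium-binding protein of astrocytes. Their downstream windows were covered over 623 and 1001 bp in wild-type cells and over 823 and 1001 bp in Setd5+/- cells. Hoxa3 (18 CG, chr6:52213068-52213317, minus strand) encodes a transcription factor of hindbrain and neural crest patterning. It had no H3K4me1 upstream in wild-type cells and 767 bp of it in Setd5+/- cells.
Gli3: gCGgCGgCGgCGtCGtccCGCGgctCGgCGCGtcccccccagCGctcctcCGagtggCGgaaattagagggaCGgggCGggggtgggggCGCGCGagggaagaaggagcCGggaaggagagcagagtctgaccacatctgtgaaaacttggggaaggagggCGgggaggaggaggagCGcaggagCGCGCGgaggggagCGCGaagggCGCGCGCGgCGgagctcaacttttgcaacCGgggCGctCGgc
S100b: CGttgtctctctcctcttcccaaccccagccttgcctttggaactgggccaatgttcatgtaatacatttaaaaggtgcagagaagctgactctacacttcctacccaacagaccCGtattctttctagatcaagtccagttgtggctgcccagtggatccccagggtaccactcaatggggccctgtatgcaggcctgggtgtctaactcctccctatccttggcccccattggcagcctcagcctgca
Hoxa3: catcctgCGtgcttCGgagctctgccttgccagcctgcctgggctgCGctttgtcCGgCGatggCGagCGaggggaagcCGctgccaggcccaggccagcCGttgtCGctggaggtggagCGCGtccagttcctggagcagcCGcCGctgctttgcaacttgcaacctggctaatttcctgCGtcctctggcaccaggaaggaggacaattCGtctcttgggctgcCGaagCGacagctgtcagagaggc
Among the genes named by that rule whose start lay under H3K4me3 in the table, starts with downstream H3K4me1 in wild-type cells alone had from 8 CG (Pagr1a) to 21 CG (Rbpj), and starts that had it in both genotypes from 2 CG (S100b) to 43 CG (E2f1), so these ranges overlapped.

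Distal islands were kept far more often where they also carried H3K27ac. Among distal wild-type islands, 906 of the 3060 that overlapped a wild-type H3K27ac island (29.6%) were lost, against 6645 of the 11084 without one (60.0%). The gap was present at like numbers of reads: it was 60.3% against 76.7% in the quartile of islands with the fewest reads and 15.2% against 26.1% in the quartile with the most. In the trimmed lists the shares were 23.3% and 52.8%. Gained distal islands mirrored this, with 183 of 2121 islands with Setd5+/- H3K27ac (8.63%) gained against 2154 of 6888 without (31.3%). Distal islands present in 1 genotype thus carried the mark of active enhancers less often than kept ones. It lay on 12.0% of lost and 32.7% of kept distal wild-type islands. In Setd5+/- cells it lay on 7.83% of gained and 29.0% of kept distal islands. Most kept distal islands therefore lacked it too.

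Other marks differed between kept and lost islands too, H3K36me2 mainly where the islands overlapped H3K4me3. H3K27ac lay on 73.4% of kept and 60.3% of lost islands that overlapped H3K4me3, and on 32.7% of kept and 12.0% of lost distal islands. H3K36me2 lay on 10.9% of kept and 3.66% of lost islands that overlapped H3K4me3, and on 14.3% of kept and 11.6% of lost distal islands. H3K36me3 lay on 20.4% of kept and 16.6% of lost overlapping islands and on 15.6% and 12.0% of distal ones. H3K27me3, the mark of Polycomb repression, lay on 1.90% of kept and 3.72% of lost overlapping islands. SETD5-V5 islands lay on 4.66% of kept and 3.43% of lost overlapping islands, and on 3.02% of kept and 3.73% of lost distal islands. Kept islands were wider than lost ones (medians of 2000 and 1400 bp), and the part of width in these shares was not tested.

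H3K4me1 was then followed near named genes, as the kilobases covered from 10 kb before to 10 kb beyond each gene. A gene was called lower or higher where the lists at equal covered length differed at least 2-fold and by at least 1 kb. Of 17357 protein-coding genes, 2860 (16.5%) were called lower and 1720 (9.91%) higher in Setd5+/- cells. As deposited the counts were 5383 (31.0%) and 503 (2.90%). Only 10316 of these genes had wild-type coverage as deposited, and a gene without it could not be called lower. A list with many covered genes can thus exceed the lower share of all genes. Lower calls as deposited are therefore also set beside the genes with wild-type coverage. A higher call can arise because a sparse wild-type island was removed in the trimming, so the deposited values are given beside each gene, with wild type before Setd5+/-.

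Most genes of neural stem cells and radial glia carried H3K4me1 in both genotypes. Of the 21 members on these autosomes, 18 had an island in wild-type cells and 15 in Setd5+/- cells, beside 10316 and 6775 of all 17357 genes. The median covered length was 4.6 and 2.2 kb, beside 1.2 and 0 kb for all genes. Synaptic genes, with 15 and 13 of 17 and medians of 8.8 and 3.6 kb, were no less covered. These counts therefore do not identify the cell type. Sox2, the transcription factor that maintains neural stem cells, had 7.2 and 5.06 kb, and Nes, which encodes the intermediate filament nestin, had 11.6 and 8.4 kb. Notch1, the receptor of the pathway that holds progenitors undifferentiated, had 24.8 and 23 kb. Other members had less: Prom1, Emx2 and Id4 had none in either genotype. Pax6 (1.6 kb) and Nr2e1 (4.6 kb) had it in wild-type cells only. Calls at equal covered length were 4 lower and 3 higher (19.05% and 14.3%, beside 16.5% and 9.91% of all genes). Sox9, which promotes stem cell and glial identity, had 2.0 kb in wild-type cells and none in Setd5+/- cells. As deposited 8 members were called lower and none higher (38.1% lower, beside 31.0% lower and 2.90% higher among all genes). Counted over genes with wild-type coverage, 8 of 18 members were lower, beside 5383 of 10316 genes. Hopx (3.6 and 3.8 kb) and Gli3 (9.4 and 7.0 kb) were called higher only because trimming left 0 and 3.4 kb in wild type.

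Genes of neurons and synapses had few calls at equal covered length. Among 15 genes of neuronal differentiation, 5 had H3K4me1 in wild-type cells and 3 in Setd5+/- cells. There was 1 lower and 1 higher call (6.67% each, beside 16.5% and 9.91% of all genes). A gene without wild-type coverage could not be called lower. The lower one was Eomes, the transcription factor of intermediate progenitors, with 2.2 kb in wild-type cells and none in Setd5+/- cells. The higher one was Bcl11b, a regulator of deep-layer projection neurons, with 4.6 and 7.6 kb as deposited. Of 17 synaptic genes none was called lower and 1 higher (5.88%, beside 16.5% lower and 9.91% higher among all genes). The higher one was Snap25, which encodes a vesicle fusion protein. It had 3.8 and 2.0 kb as deposited and none left in wild type after trimming. As deposited, 9 of the 17 synaptic genes (52.9%, beside 31.0% of all genes) were called lower. Counted over genes with wild-type coverage, this was 9 of 15, beside 5383 of 10316. Among 15 interneuron and ventral telencephalic genes, Sst had 1.2 kb in wild-type only and Gad2, which encodes an enzyme of GABA synthesis, had 1.6 kb in Setd5+/- cells only.

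Glial and regional genes had more higher than lower calls at equal covered length, an order that did not hold for glial genes as deposited. Of 15 astrocyte and oligodendrocyte genes 2 were called lower and 3 higher (13.3% and 20%, beside 16.5% and 9.91% of all genes). As deposited 6 were called lower and none higher (40% lower, beside 31.0% lower and 2.90% higher among all genes). Counted over genes with wild-type coverage, 6 of 14 were lower, beside 5383 of 10316. S100b had 6.4 kb in 2 islands in wild-type cells and 9.2 kb in 4 islands in Setd5+/- cells, and Gfap, the astrocytic intermediate filament, had 3.6 and 4.4 kb. Their reads were 185 and 168 for S100b and 114 and 99 for Gfap. The lower calls were Gjb6, which encodes an astrocytic connexin, and Nkx2-2, a transcription factor of oligodendrocyte precursors, each with 1.2 kb in wild-type only. Of 15 midbrain, hindbrain and Hox genes none was called lower and 6 higher (40% higher, beside 16.5% lower and 9.91% higher among all genes). These genes pattern the body axis and parts of the brain outside the telencephalon. Hoxa3 had 2.6 kb in 2 islands with 69 reads in wild-type cells and 10.0 kb in 5 islands with 192 reads in Setd5+/- cells. Neighbouring Hoxa genes share part of their 10-kb surroundings, so their calls are not separate observations. As deposited the list had 1 lower and 2 higher calls (6.67% lower, beside 31.0% lower and 2.90% higher among all genes). Only 6 members had wild-type coverage and could be called lower.

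Among genes of the Notch, Wnt, Shh and Fgf pathways, 20 of 21 had H3K4me1 in wild-type cells and 17 in Setd5+/- cells. After trimming, 2 were called lower and 1 higher (9.52% and 4.76%, beside 16.5% and 9.91% of all genes). As deposited 9 were called lower (42.9%, beside 31.0%) and none higher. Counted over genes with wild-type coverage, 9 of 20 were lower, beside 5383 of 10316. Fgfr2, a receptor of fibroblast growth factors, had 8.8 and 3.6 kb with 262 and 77 reads, and Dll3, a divergent Notch ligand, had 2.0 kb in wild-type only. Rbpj, the DNA-binding partner of Notch, had 3.8 and 1.4 kb as deposited, and trimming left none of it in wild type. Other receptors of the list varied, with 18.4 and 16.4 kb at Ptch1, 22.0 and 16.4 kb at Notch2, 10.3 and 3.6 kb at Fgfr1 and 2.4 kb and none at Fzd8, the last pair called lower as deposited.

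Genes for the enzymes that write and erase H3K4 methylation had 7 lower and 2 higher calls among 18 members (38.9% and 11.1%, beside 16.5% and 9.91% of all genes). Setd1b, which encodes a SET-domain enzyme that methylates H3K4, had 8.8 kb in 3 islands with 279 reads in wild-type cells and 3.0 kb in 2 islands with 74 reads in Setd5+/- cells. Ncoa6, which encodes a subunit of the KMT2C and KMT2D complexes, had 3.545 kb in 3 islands with 129 reads in wild-type cells and none in Setd5+/- cells. Dpy30, a core subunit of H3K4 methyltransferase complexes, had 0.8 and 2.0 kb and was called higher. Pagr1a, another subunit of the KMT2C and KMT2D complexes, was called higher from 3.8 and 1.6 kb as deposited, with 0.6 kb left in wild type after trimming. As deposited 11 members were called lower and 1 higher (61.1% lower, beside 31.0% lower and 2.90% higher among all genes). Counted over genes with wild-type coverage, 11 of 17 were lower, beside 5383 of 10316. Kmt2a had 11.6 and 8.0 kb and was not called.

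Cell cycle genes had many calls in both directions, 8 lower and 6 higher among 22 (36.4% and 27.3%, beside 16.5% and 9.91% of all genes). Cdk4 had 5.2 kb in 5 islands with 163 reads in wild-type cells and none in Setd5+/- cells, and Mcm2 had 3.4 kb in 3 islands and none. Cdk6, which encodes the partner kinase of Cdk4 in G1, had 11.2 kb in 6 islands with 303 reads in wild-type cells and 24.6 kb in 12 islands with 508 reads in Setd5+/- cells. E2f1, the transcription factor released by these kinases, had 2.2 and 4.6 kb. As deposited 13 members were called lower and 4 higher (59.1% lower, beside 31.0% lower and 2.90% higher among all genes). Counted over genes with wild-type coverage, 13 of 21 were lower, beside 5383 of 10316. The partners Cdk4 and Cdk6 were thus called in opposite directions. Ribosomal protein genes had 3 lower and 5 higher calls among 19 (15.8% and 26.3%, beside 16.5% and 9.91% of all genes). Rps9 had 3.4 kb and Rps15 3.0 kb in wild-type cells and none in Setd5+/- cells. Rpl19 (2.4 and 2.2 kb) and Rps3 (2.4 and 1.8 kb) were called higher because trimming left none of their wild-type coverage. As deposited 8 ribosomal protein genes were called lower and 1 higher (42.1% lower, beside 31.0% lower and 2.90% higher among all genes). All 19 had wild-type coverage, so the like count among all genes was 5383 of 10316.

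Genes of other cell types were not free of H3K4me1. Of 12 microglial and blood genes 6 had an island in wild-type cells and 5 in Setd5+/- cells, beside 10316 and 6775 of all 17357 genes, with 2 lower calls and 1 higher call (16.7% and 8.33%, beside 16.5% and 9.91% of all genes). P2ry12, a purine receptor of microglia, had 6.2 and 3.4 kb, and Cd68, a lysosomal protein of macrophages, had 5.4 and 4.4 kb. Cx3cr1, the microglial fractalkine receptor, had none in either genotype. Cd14, a receptor of innate immune cells, had 5.4 and 1.0 kb, and Aif1, a microglial calcium-binding protein, had 3.6 and 1.0 kb. Csf1r, the receptor that microglia need to survive, had 2.0 and 2.2 kb as deposited. Of 12 endothelial and mesenchymal genes 5 and 3 had an island. None was called in either direction, beside 16.5% lower and 9.91% higher among all genes. Pecam1, an adhesion protein of endothelium, had 10.4 and 7.2 kb, and Cdh5 and Kdr, which also mark endothelium, had none. Of 17 regulators of other lineages 4 and 3 had an island, beside 10316 and 6775 of all 17357 genes. There were 2 lower calls and 1 higher call (11.8% and 5.88%, beside 16.5% and 9.91% of all genes). The lower calls were Nanog (4.4 and 2.0 kb) and Pou5f1 (3.2 kb and none), both pluripotency factors. The higher call was Trp63 (8.0 and 3.8 kb as deposited, 1.0 kb left in wild type). An island near a gene is not a measure of its expression.

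**Figure D5:**
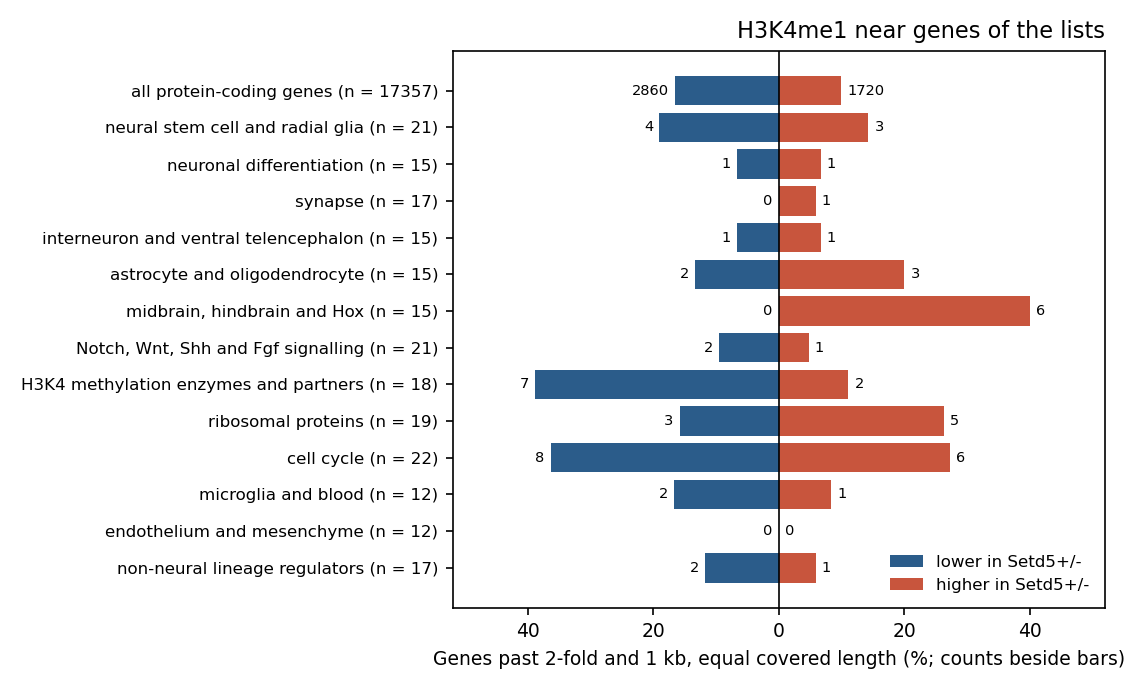
Share of the genes of each list called lower (to the left) or higher (to the right) in Setd5+/- cells at equal covered length (x axis, percent, with counts beside the bars), with the number of members on the 16 other autosomes in brackets. Among all 17357 genes 16.5% were called lower and 9.91% higher, and the midbrain, hindbrain and Hox list has 6 higher and no lower calls among 15 genes.

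Distal islands that were lost under both list lengths numbered 3426, and the 10 with the most reads held 131 to 285 reads. The first was 5.0 kb long at chr8:20558001-20563000 with 285 reads, in a stretch whose nearest named gene, the defensin Defb33, lay 330 kb away. The second (253 reads) and the sixth (142 reads) also lay on chromosome 8 nearest to defensin genes, Defb7 and Defa21. Gained islands of up to 748 reads lay in the same part of chromosome 8, at chr8:20584401-20600400 for the largest, so this stretch held islands of both kinds. Lost islands inside genes lay in Vac14 (158 reads), Sfxn5 (151), Adora2b (134), Rnf43 (132) and Abtb2 (132). Vac14 acts in phosphoinositide metabolism, Adora2b is an adenosine receptor and Rnf43 a ubiquitin ligase that removes Wnt receptors from the cell surface. The island in Vac14 overlapped islands in 4 of the other 11 lists of the series and that in Abtb2 in none. Whether these intragenic islands lay over exons or introns was not analysed here.

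The gained islands with the most reads were of another kind. Of the 2337 gained distal islands, the first by reads was chr9:2999801-3038600, with 51490 reads over 38.8 kb, or 1327 reads per kb. The next were at chr14:19415601-19419800 with 15028 reads over 4.2 kb and chr2:98666201-98667400 with 5188 reads over 1.2 kb, or 4323 reads per kb. Each of these 3 stretches also had an island in 3 of the other 11 lists. Islands above 100 reads per kb numbered 14 in Setd5+/- cells and held 11.7% of all island reads, against 5 in wild-type cells with 0.315%. Leaving them out gave 3266 gained islands in place of 3275, so they weigh on the reads and not on the counts of islands. Among gained islands of at most 100 reads per kb were 1 in Ctdspl (82 reads over 4.2 kb, no other list), 1 in Vav3 (79 reads over 4.4 kb) and 1 near Tmtc3 (149 reads over 6.8 kb).

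Some losses were spread over neighbourhoods. In fixed windows of 100 kb the largest fall at equal covered length was around Pdia4, a protein-folding enzyme of the endoplasmic reticulum, with 37.8 kb in 10 islands in wild-type cells and 13.4 kb in 6 islands in Setd5+/- cells as deposited. The next were in Tcf4, a transcription factor of neuronal development (68.6 and 38.6 kb), at B9d1 and Epn2 (46.6 and 21.0 kb), in Slc4a4, a bicarbonate transporter of glia (41.2 and 21.4 kb), and at the potassium channel genes Kcna2 and Kcna10 (22.0 and 7.0 kb). In Tcf4 the number of islands was 15 in both genotypes while their length differed. The window with the largest rise was the dense island of chromosome 9. At Npas3, a neuronal transcription factor, 30.4 and 33.8 kb were covered, and at the kinase gene Fyn 33.2 and 36.6 kb. These values were close to each other as deposited, and the rise came from the trimming, which left 2.2 and 15.0 kb in wild type. At Plekha7, which encodes a protein of adherens junctions, the rise was present as deposited too, with 10.4 kb in 6 islands and 20.6 kb in 10 islands. At Sfi1 the Setd5+/- coverage of 27.4 kb, beside 1.2 kb in wild-type cells, was 1 island with 3048 reads.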

How the data were processed

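Chromatin immunoprecipitation libraries were sequenced as single reads of 50 bp after 14 PCR cycles, per the labels' protocols. Per the submitters' processing notes, the tools were FastQC, Bowtie2 2.2.3 and SICER 1.1 on GRCm38 (mm10). The sources used here give no SICER settings for H3K4me1 and no use of the inputs, and widths in both deposited lists were multiples of 200 bp. The whole numbers in the last column of the deposited lists were taken as counts of the reads in each island, made by the authors.

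Islands were paired by an overlap of 1 bp, as deposited and after trimming by reads per kb to equal covered length. Positions were set against the union of H3K4me3 islands of both genotypes, with flanks of 2 kb. Start sites came from the RefSeq promoter table of GRCm38.p6, with 1 start per gene and starts under H3K4me3 preferred. Named genes were, per list, the 2 largest falls and 2 largest rises in covered length among called genes. Named regions were the 10 lost and 10 gained distal islands with the most reads, the 5 windows of 100 kb with the largest change each way and the 3 kept regions with the most reads. Some genes that this rule names are not reported here. Members that show a contrast were added in the text after their values were seen. The islands, the 13 gene lists and the comparisons were chosen with earlier results of these data known. Python 3.11.15, numpy 2.4.6, pandas 2.3.3, scipy 1.17.1 and matplotlib 3.10.9 were used, and pairing, trimming and positions were tested on simulated data. Wilson intervals (95%) describe only the counting error of islands or start sites, each taken as independent, and leave out differences between libraries. Amplified reads lacked molecular identifiers and may repeat the same molecule. There is 1 library per genotype, so no test was run. Of the 20 alternatives planned, and of those added after seeing the data, the closing section gives the effect.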

Additional observations from a re-analysis of the deposited data

How the results depend on the processing

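No paired analysis was possible because each genotype has 1 library. Both lists were called separately and their depth outside islands is unknown, so equal covered length is a choice of scale and not a correction. Lost and gained islands as deposited stayed within 1.5 times of 15399 and 3275 with the other list extended by 1 kb, a stricter density threshold or without dense islands. Gained islands moved to 6637 with 50% reciprocal overlap and to 6058 on all 19 autosomes. At equal covered length lost islands moved to 3833 when ranked by reads. Lost minus gained was 1092, and it turned to −3860 by reads, and moved to 220 at 50% of the shorter length, 389 with equal numbers, 694 with reciprocal overlap and 1935 on 19 autosomes; the cause was not tested. The share of islands overlapping H3K4me3, wild type before Setd5+/-, moved to 42.2% and 39.3% with H3K4me3 of the same genotype, 36.4% and 27.9% with stricter H3K4me3, 56.6% and 45.3% at 50% of the shorter length, and to 52.6% (by reads per kb) and 49.5% (by reads) for wild type at equal covered length. The distal shares were 51.2% and 55.9% with a flank of 1 kb, 43.9% and 47.2% with 5 kb, 54.5% and 55.8% with the same genotype, 60.7% and 68.2% with stricter H3K4me3, 40.3% and 49.8% at 50%, and 44.2% and 46.9% for wild type at equal covered length. The log2 inside over distal ratio was −0.39 with a flank of 1 kb, −0.37 with 5 kb, −0.13 with the same genotype, −0.58 with stricter H3K4me3, −0.70 at equal covered length, −0.65 at 50%, −0.40 by reads and −0.38 without dense islands, negative in all. Downstream H3K4me1 at starts was 33.6% of wild type at equal covered length, 18.8% by reads, and 17.3% and 10.1% at 50%. The log2 strength of lost over kept islands was −0.11, and −0.61 by reads per island and −0.027 at equal covered length. That of gained over kept was −0.09, and −0.31 by reads and −0.092 at equal covered length. Genes called lower moved from 2860 to 5383 as deposited, and higher from 1720 to 503. Of the calls per gene list under the alternatives, 59 counts were within 1.5 times of the value given and 45 moved. Small islands near each list's lower end limit all counts.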

Other observations

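MicroRNA genes give a view of single loci. Of 772 hairpins of the RefSeq table on the 16 other autosomes, 111 had H3K4me1 within 1 kb in wild-type cells and 70 in Setd5+/- cells, with 50 in both, 61 in wild-type cells alone and 20 in Setd5+/- cells alone. At equal covered length 38 had it in both, 29 in wild-type cells alone and 32 in Setd5+/- cells alone. The loci named here were chosen after their values were seen. The 6 hairpins from Mir17 to Mir92-1 on chromosome 14, a cluster known for promoting proliferation, had 1774 to 2096 bp covered in wild type and none in Setd5+/- cells, and the wild-type island was among those removed at equal covered length. The same held for Mir128-2, a neuronal microRNA, with 2076 bp. Mir9-2, known for promoting neuronal differentiation, had 787 bp and Mir26a-1, inside the gained island of Ctdspl, 2090 bp in Setd5+/- cells only, and Mir21a had 2092 and 1334 bp. The mature sequences are those of RefSeq (GRCm38), 5′ to 3′, with the seed (bases 2 to 8) in capitals. They show that miR-17-5p and miR-20a-5p share a seed, as do miR-19a-3p and miR-19b-3p.
mmu-miR-17-5p: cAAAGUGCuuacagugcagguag
mmu-miR-20a-5p: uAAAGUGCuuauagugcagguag
mmu-miR-19a-3p: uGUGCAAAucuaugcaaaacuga
mmu-miR-19b-3p: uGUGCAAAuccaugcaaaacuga
mmu-miR-92a-3p: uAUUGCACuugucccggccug
mmu-miR-9-5p: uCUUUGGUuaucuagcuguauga
mmu-miR-26a-5p: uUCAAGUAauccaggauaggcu
No abundance of these microRNAs was measured here.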
